A study of Mus musculus with 9 samples.

Results

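The graded trend across Sirpa levels covers all 9 RNA-seq libraries of the series, chosen because the 3 B16F10 lines can be placed in order of their Sirpa genotype. Each line was scored by its label, with -1 for the line labelled SIRPA knockdown, 0 for the non-target control and 1 for SIRPA overexpression, and each line had 3 biological repeats. B16F10 is a pigmented melanoma line of C57BL/6 mice, here grown in DMEM with serum. No drug or other agent is named in the labels. How Sirpa was lowered or raised, and whether a line is 1 clone or a pool, is not stated in those labels. Each genotype is therefore 1 line, and the p-values take in only how far repeats of a line vary.

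Of 13064 genes tested, 119 (0.911%) were graded, meaning that they changed in the same direction from knockdown to control and again from control to overexpression. These comprised 70 genes that rose with Sirpa (0.536%), Sirpa included, and 49 that fell (0.375%). Trpm1, Gjb2, Slc45a2, Etv5 and Gpr37 were among the rising genes, and Mttp, Espn, Cntn1, Ahnak and Prickle1 among the falling ones. A correction for transcript length kept 44 of the 119 calls, and not those of Etv5 and Cntn1. Most graded changes were small, with a median smaller step of 0.23 on the log2 scale.

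SIRPA is a cell-surface receptor with immunoglobulin domains, best known on macrophages, where binding of its ligand CD47 restrains engulfment of the cell that carries CD47. Phosphorylated tyrosines in its cytoplasmic tail recruit the tyrosine phosphatases encoded by Ptpn6 and Ptpn11. It is also abundant on neurons. Melanocytes make melanin in melanosomes, organelles whose enzymes and transporters are controlled largely by the transcription factor MITF.

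Throughout, the lower step is control minus knockdown and the upper step is overexpression minus control, both as log2 differences from 1 edgeR quasi-likelihood fit, so that positive values rise with Sirpa. The linear term is the difference between the outer lines divided by 2. It compares knockdown with overexpression, and the control libraries enter it only through the estimate of spread. The quadratic term is the mean of the outer lines minus the control, and tests whether the upper and lower steps differ. A call is an adjusted p under 0.05, with Benjamini-Hochberg adjustment across the 13064 genes, errors are SE, and levels are counts per 1000000 counts (CPM) in the order of replicates 1, 2 and 3. The 2 steps share the control libraries, whose error moves them in opposite directions.

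Libraries held 16400000 to 22380000 estimated counts. Sirpa stood at 118, 112 and 115 CPM in the knockdown, 292, 289 and 303 in the control, and 895, 898 and 914 in the overexpression libraries. The 3 lines did not overlap, in the order of their labels. The lower step was 1.36 ± 0.04 and the upper step 1.61 ± 0.04, with a quadratic term of 0.13 (adjusted p = 0.00636). By counts, Sirpa itself therefore moved slightly more in the upper step. In TPM, a unit scaled by transcript length, mean Sirpa was 79.6 in knockdown, 167 in control and 499 in overexpression. The gap between its steps was wider in TPM. The libraries carried the melanocytic genes Tyr, Dct and Pmel. Ptprc and Adgre1, which define leukocytes and macrophages, were at 0 in all 9 libraries, as were 8 of the 17 macrophage and myeloid markers in total. Of the rest, Cd68 read 2.57, 3.15 and 2.61, then 1.47, 1.94 and 2.22, then 0.707, 1.53 and 0.917 CPM. Its linear term fell (-0.70 ± 0.21, adjusted p = 0.0226), with neither step called. Lyz2 reached 2.58 CPM in 1 overexpression library. Mitochondrial transcripts took 2.36 to 2.57% of counts in knockdown, 2.14 to 2.17% in control and 2.37 to 2.51% in overexpression libraries, and ribosomal protein genes took 4.34 to 4.67%, 5.27 to 5.34% and 4.42 to 4.62%. Both of these shares set the control apart from the outer lines, and their part in the results was not tested.

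The lower step called 4619 genes (35.4%) and the upper step 3172 (24.3%). Included in both of these totals are 2012 genes (15.4%) whose steps were called in opposite directions. The outer lines were above the control in 1142 of them (8.74%) and below it in 870 (6.66%). The counts of opposed genes are given only for completeness, because the steps share the control. The linear term called 1438 genes rising (11%) and 1449 falling (11.1%), while the quadratic term called 4305 genes (33%), 2205 with the outer lines above the control on average (16.9%) and 2100 below (16.1%). Fitted line means ran in line order in 3635 genes (27.8%), with 1878 rising (14.4%) and 1757 falling (13.4%), whether or not a step was called. All 9 libraries stood in line order with no overlap in 320 genes (2.45%), of which 178 rose (1.36%) and 142 fell (1.09%). The 14 rising and 14 falling genes named below for their smaller step were chosen among graded genes in this order. Their lack of overlap between lines was therefore set by that choice.

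**Figure D1:**
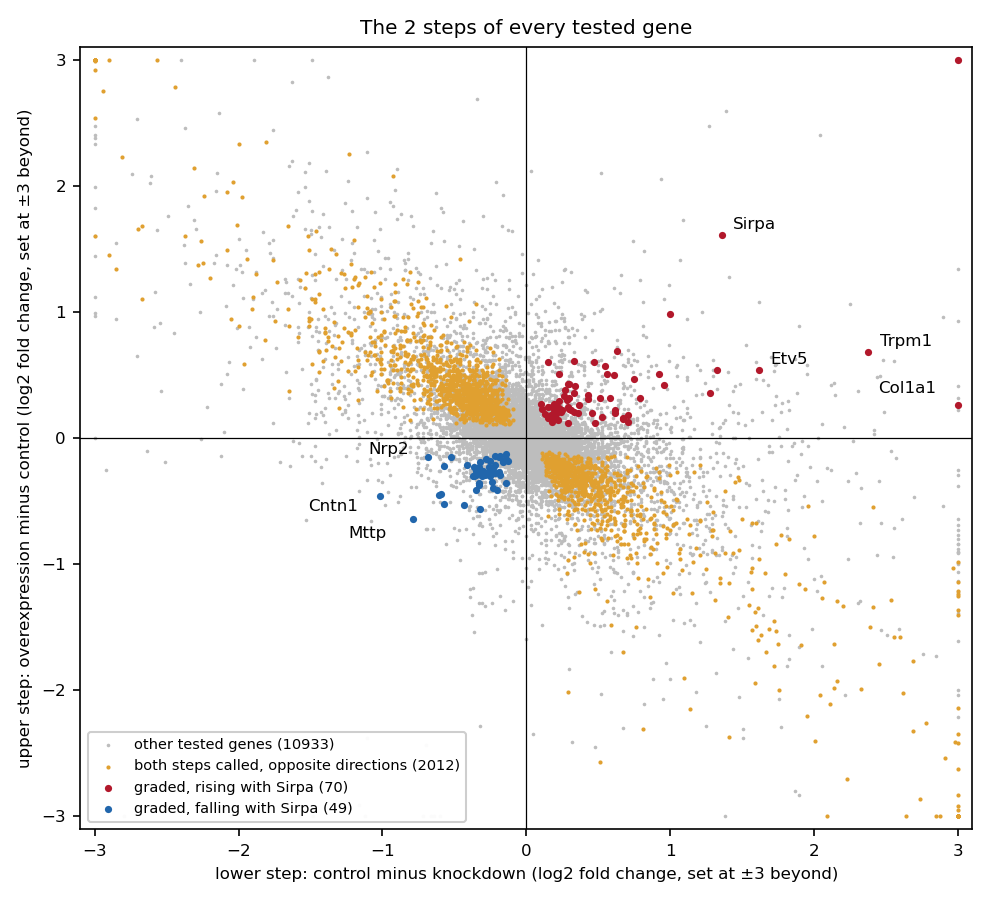
Lower step (control minus knockdown, log2, horizontal axis) against upper step (overexpression minus control, log2, vertical axis), with each point a tested gene and the 119 graded genes coloured. Graded genes lie in the upper right and lower left; the axes share the control libraries, which by itself spreads points along the other diagonal.

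A called linear term seldom came with both steps called. Among the 1438 rising genes, 70 (4.87%) had both steps called upward, 697 (48.5%) had only the lower step called, 239 (16.6%) only the upper step, and 213 (14.8%) neither, while 219 (15.2%) had steps called in opposite directions. Among the 1449 falling genes the counts were 49 (3.38%), 627 (43.3%), 264 (18.2%), 211 (14.6%) and 298 (20.6%). The quadratic term was also called in 403 of the 697 rising genes with only the lower step called and in 347 of the 627 falling ones. For those genes the difference between the steps itself passed the test.

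**Figure D2:**
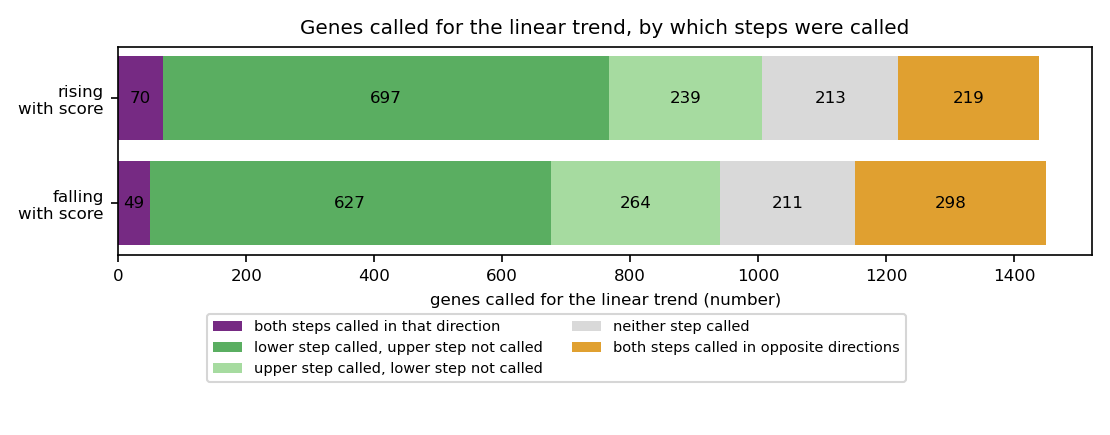
Genes with a called linear term, rising and falling with Sirpa, divided by which steps were called (number of genes). The largest class in both directions has only the step from knockdown to control called, with 697 rising and 627 falling genes.

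Trpm1, a cation channel gene of melanocytes and retinal bipolar cells, gave the widest change of the 3 graded pigment genes. Its level was 47.1, 44.5 and 42.8 CPM in knockdown, 233, 237 and 231 in control, and 369, 379 and 373 in overexpression libraries. No libraries of different lines overlapped, and the larger part of the change lay below the control. The lower step was 2.38 ± 0.05 (adjusted p = 4.79e-15) and the upper 0.68 ± 0.04 (adjusted p = 8.19e-09), and the quadratic term was called (-0.85, adjusted p = 6.59e-11). Slc45a2, which encodes a melanosomal transporter needed for pigmentation, moved in near-equal steps. Its libraries read 573, 566 and 589 CPM, then 695, 728 and 709, then 889, 905 and 872. Steps were 0.30 ± 0.04 and 0.32 ± 0.04 (adjusted p = 5.9e-06 and 5.43e-06). Rab27a, the GTPase that tethers melanosomes to the actin motor complex, stood at 151, 142 and 143, then 162, 162 and 173, then 206, 197 and 199 CPM. Its steps of 0.19 ± 0.05 and 0.27 ± 0.04 were called (adjusted p = 0.00321 and 0.000294), although the lower one was under 1.2-fold.

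These 3 were the graded members among 25 tested pigment and melanosome genes, against 0.911% graded over all tested genes. In that list 18 genes rose by the linear term and 1, Myo5a, fell (linear -0.06 ± 0.02, adjusted p = 0.0299), against 11% and 11.1% of all tested genes. The list's median linear term was 0.13, and that of all tested genes 0. The members reached their linear change by different routes. Dct, the melanin enzyme dopachrome tautomerase, had only its lower step called (0.19, against 0.06 with adjusted p = 0.103 above), at 3980, 3820 and 3910, then 4430, 4490 and 4450, then 4670, 4740 and 4570 CPM. Tyr, the rate-limiting enzyme of melanin synthesis, had only its upper step called (0.45, adjusted p = 8.42e-07), at 464, 421 and 451, then 443, 441 and 439, then 592, 627 and 592 CPM. The lower step of Tyr was -0.01 (adjusted p = 0.838), and its knockdown and control libraries overlapped. Kit, the receptor tyrosine kinase of the melanocyte lineage, had a called lower step of 3.17 ± 0.43, with control libraries at 6.5, 8.43 and 4.53 CPM and overexpression libraries at 6.93, 4.77 and 4.13. Its upper step was -0.29 ± 0.36 (adjusted p = 0.624), and control and overexpression overlapped.

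Transcription factors that govern the melanocyte lineage formed a separate list. Of 13 tested, 2 rose and 3 fell by the linear term, against 11% and 11.1% of all genes, and 8 had a negative quadratic term, against 16.1% of all genes. Mitf read 296, 288 and 285, then 389, 380 and 366, then 345, 331 and 327 CPM, highest in the control. Its called steps were 0.38 ± 0.04 and -0.18 ± 0.04 (adjusted p = 1.64e-06 and 0.00367). Sox9, a neural crest factor, rose by the linear term (0.23 ± 0.05, adjusted p = 0.00655), and Zeb2, a zinc finger factor, fell (-0.17 ± 0.03, adjusted p = 0.000318).

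MITF binds the M-box, an extended E-box with the letters TCATGTG. The sequences shown are the 250 bases before the annotated starts of the rising graded genes with this motif, Trpm1 and Tspan10, from RefSeq on build GRCm38.p6, written 5′ to 3′ along the gene with the motif in capitals. In Tspan10 the motif is the reverse complement. Tspan10, a tetraspanin gene, was graded and was named after its values were seen.

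Trpm1, chr7:64153585-64153834, plus strand: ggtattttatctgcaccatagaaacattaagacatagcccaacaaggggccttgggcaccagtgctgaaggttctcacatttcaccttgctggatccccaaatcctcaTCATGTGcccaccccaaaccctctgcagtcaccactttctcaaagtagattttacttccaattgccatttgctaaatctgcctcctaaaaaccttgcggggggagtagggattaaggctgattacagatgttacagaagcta

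Tspan10, chr11:120442381-120442630, plus strand: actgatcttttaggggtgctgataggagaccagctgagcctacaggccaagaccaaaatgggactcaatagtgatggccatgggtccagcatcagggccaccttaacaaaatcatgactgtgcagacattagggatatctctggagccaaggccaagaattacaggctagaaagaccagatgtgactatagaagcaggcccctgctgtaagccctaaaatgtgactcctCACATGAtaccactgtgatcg

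The Trpm1 motif begins 142 bases and the Tspan10 motif 21 bases before the start. A further annotated Trpm1 start further downstream has no M-box in its window. Promoters in this table could be matched for 54 of the 69 rising graded genes other than Sirpa, giving 73 windows, and for 41 of the 49 falling genes, giving 61 windows. On either strand, the M-box was in 2.74% of rising, 1.64% of falling and 1.75% of the 12492 windows of all tested genes. The E-box CACGTG was in 6.85%, 9.84% and 8.41%, and the AP-1 motif TGANTCA in 5.48%, 4.92% and 4.21%. The cyclic AMP response element TGACGTCA was in none of the graded windows and in 2.57% of all. None of the 4 motifs contains another, and a match is only a match of letters. Tspan10 stood at 237, 264 and 233 CPM in knockdown, 297, 319 and 308 in control, and 358, 343 and 364 in overexpression libraries, with no overlap between lines. Its steps were 0.33 ± 0.05 and 0.21 ± 0.05 (adjusted p = 6.64e-05 and 0.00572).

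Among transcription factors and signalling genes, Etv5 was the graded member of the MAPK output list, against 0.911% graded over all tested genes. Etv5 encodes an ETS factor that is induced downstream of ERK. It stood at 6.36, 4.88 and 5.11 CPM in knockdown, 17, 16.4 and 17.3 in control, and 27.7, 23.7 and 22.1 in overexpression libraries, again without overlap. The lower step was 1.62 ± 0.14 and the upper 0.54 ± 0.12 (adjusted p = 1.47e-07 and 0.0043), and the steps differed (quadratic adjusted p = 0.00115). Of the 22 tested members of this list, 13 rose and 2 fell by the linear term, against 11% and 11.1% of all genes, and 11 had a negative quadratic term, against 16.1%. The list's median linear term was 0.28, against 0 over all genes. The ERK phosphatase genes Dusp4 and Dusp6 and the feedback inhibitor Spry2 had called lower steps and upper steps that were not called. For Dusp6 the libraries read 87.6, 88.6 and 96.6, then 145, 137 and 137, then 127, 126 and 134 CPM. The lower step was 0.62 and the upper -0.12 (adjusted p = 0.12). Etv4, a close relative of Etv5, had a called lower step of 2.14 ± 0.44 and an upper step of 0.44 ± 0.39 (adjusted p = 0.471).

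Rarb, which encodes a retinoic acid receptor, had the largest smaller step of the named rising genes other than Sirpa, at low level. Its libraries read 1.98, 0.952 and 1.4, then 3.19, 3.03 and 2.56, then 5.99, 5.88 and 5.44 CPM, with no overlap. Steps were 1 ± 0.31 and 0.98 ± 0.29 (adjusted p = 0.0186 and 0.0209). Its annotated transcripts share 35.7% of their 31-base words with those of other genes, mostly Top2b, so the assignment of reads is less certain; the share was 30.3% for Etv5, 41.1% for Fam84b and 22% for Mest. Stox2, a winged-helix protein gene, rose from 44.8, 38.6 and 37.3 to 68.4, 67.6 and 67.2 and then 96.9, 85.6 and 99.2 CPM. Its steps were 0.75 ± 0.08 and 0.47 ± 0.08.

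Other rising genes act at the cell surface or in membrane traffic. Gjb2, a connexin of gap junctions, stood at 108, 109 and 106, then 156, 163 and 156, then 218, 242 and 242 CPM. Its steps of 0.55 ± 0.05 and 0.57 ± 0.05 were nearly equal (adjusted p = 2.99e-07 and 3.5e-07; quadratic term 0.01, adjusted p = 0.905). Gpr37, an orphan receptor gene expressed in the nervous system, rose from 14, 16.1 and 17.7 to 30.1, 30.7 and 29.4 and then 42.5, 42.2 and 43.7 CPM, with steps of 0.92 ± 0.09 and 0.51 ± 0.09. In both genes the 3 lines were fully separated.

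Cd38, an ectoenzyme that consumes NAD, was low, with 3.74, 3.03 and 3.77, then 5.27, 4.43 and 6.65, then 9.29, 9.53 and 7.57 CPM (adjusted p = 0.0307 and 0.0233). Cd276, an immune checkpoint molecule of the B7 family, moved mainly below the control, at 8.93, 8.15 and 7.23, then 19.1, 18.7 and 21.5, then 25.1, 25.2 and 26 CPM. Its lower step of 1.28 ± 0.11 exceeded its upper step of 0.36 ± 0.11 (quadratic adjusted p = 0.00117). Rab17, a GTPase of recycling endosomes, had steps of 1.33 ± 0.20 and 0.54 ± 0.18 (adjusted p = 7.26e-05 and 0.0431).

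Itgav, the integrin alpha V subunit, rose by 0.53 ± 0.05 and 0.17 ± 0.05. Slc7a5, the large neutral amino acid transporter, had near-equal steps of 0.17 ± 0.05 and 0.18 ± 0.05. Both steps of Slc7a5 were below 1.2-fold, and so were those of Lima1, an actin-bundling protein gene, at 0.15 ± 0.05 and 0.16 ± 0.05. Insig1, which retains the sterol-sensing complex in the endoplasmic reticulum, had steps of 0.10 ± 0.04 and 0.27 ± 0.04. The remaining named rising genes were Kazn, Fam84b, Mest, Tinagl1 and Tpgs2. Mest, an imprinted gene expressed from the paternal allele, rose from 62.9, 53 and 61.4 to 80.3, 82.6 and 83.1 and then 119, 128 and 125 CPM. For Mest the upper step was the larger (0.47 ± 0.07 and 0.60 ± 0.06), although the quadratic term was not called (adjusted p = 0.422).

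**Figure D3:**
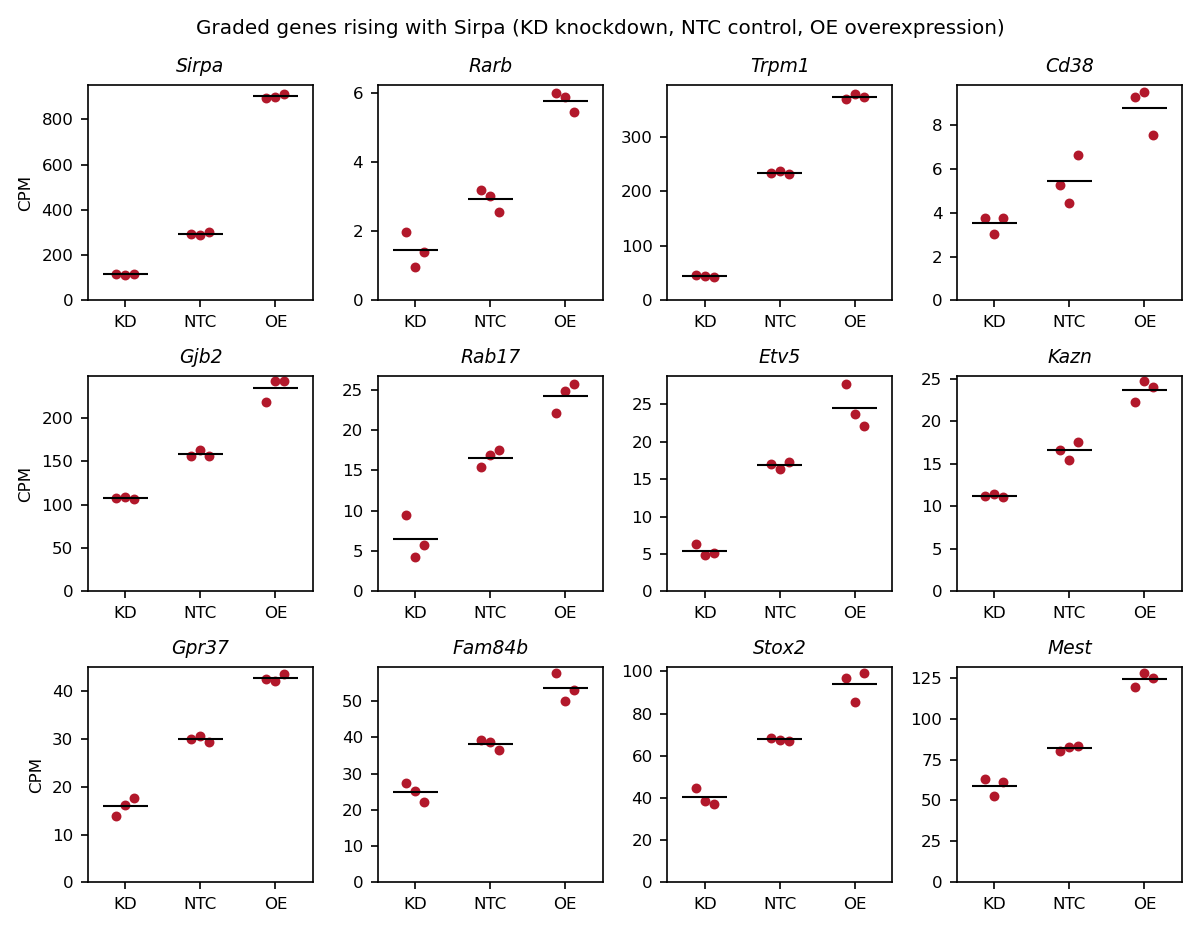
CPM (linear axis from 0) of 12 graded genes that rose with Sirpa, with a point for each library and a bar for the mean of the 3 libraries of a line. Genes other than Sirpa were chosen with no overlap between lines, so their 3 separate levels follow from that choice. Steps were near-equal in Gjb2. The lower step was wide in Trpm1, whose libraries go from 42.8 to 47.1 CPM in knockdown to 369 to 379 in overexpression.

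Col1a1, a chain of fibrillar type I collagen, was graded by the calls but was close to a single step. It stood at 4.33, 4.82 and 5.71 CPM in knockdown, 52.9, 57.7 and 56.2 in control, and 63.2, 70.2 and 66 in overexpression libraries. The lower step of 3.50 ± 0.10 held 93.2% of the range between the outer lines, and the upper step was 0.26 ± 0.08 (adjusted p = 0.0233). Col1a1 is also a fibroblast marker. Of 13 fibroblast markers, 5 were tested, and Thy1 and Mfap5 were at 0 in every library. Summed without Col1a1, the list ranged from 55.9 to 65.6 CPM in knockdown, 34.4 to 40.9 in control and 39.7 to 44 in overexpression libraries, so the other markers did not run in the order of Col1a1. Among 27 tested extracellular matrix genes, Col1a1 was the graded rising gene and Col4a1 the graded falling gene. Over all tested genes 0.536% were graded rising and 0.375% graded falling. By the linear term 7 of the 27 matrix genes rose and 5 fell, against 11% and 11.1% of all genes, and 14 had a negative quadratic term, against 16.1%.

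Of the falling genes, Mttp had the largest smaller step. It encodes the transfer protein that loads lipid onto apolipoprotein B. Its libraries read 26.8, 27.1 and 30.2 CPM in knockdown, 16.1, 16.4 and 16.3 in control, and 10.4, 9.41 and 11.5 in overexpression, with no overlap. The lower step was -0.79 ± 0.10 and the upper -0.64 ± 0.11 (adjusted p = 2.33e-05 and 0.000467). Prickle1, a planar cell polarity gene, fell from 252, 262 and 264 to 207, 209 and 194 and then 153, 157 and 150 CPM, with steps of -0.35 ± 0.04 and -0.41 ± 0.04. Arfgef3, which encodes a protein related to ARF exchange factors, fell mainly above the control, at 141, 141 and 139, then 116, 112 and 110, then 74.5, 73.7 and 80.5 CPM. For Arfgef3 the steps of -0.32 ± 0.05 and -0.56 ± 0.05 differed (quadratic adjusted p = 0.0414).

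Several falling genes act at the cytoskeleton, membrane or matrix. Espn, an actin-bundling protein gene of microvilli and stereocilia, stood at 51.2, 55.7 and 50.3, then 32.5, 36.2 and 37.4, then 25.9, 22.5 and 25.3 CPM (steps -0.57 ± 0.08 and -0.52 ± 0.08). Ahnak, a giant scaffold protein under the plasma membrane, stood at 49.8, 45.8 and 46.2, then 29.1, 35 and 29.3, then 23.9, 25.7 and 18.7 CPM (steps -0.61 ± 0.11 and -0.45 ± 0.11). Col4a1, a chain of basement membrane collagen, stood at 73.2, 71.8 and 68.4, then 47, 47.8 and 47, then 32.6, 33.4 and 38.2 CPM (steps -0.59 ± 0.07 and -0.44 ± 0.07). In each of the 3 genes the lines were separate in CPM and the quadratic term was not called. In TPM, which is scaled by transcript length, Col4a1 averaged 16.8 in knockdown, 10.1 in control and 10 in overexpression, with almost no upper step. With a correction for transcript length, the highest adjusted p of a Col4a1 step was 0.85.

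Cntn1, a neuronal adhesion molecule, and Nrp2, a receptor for semaphorins and VEGF, fell mainly in the lower step. Cntn1 read 37.4, 31.7 and 33.9, then 17.2, 16.2 and 17.2, then 11.6, 12.9 and 12.4 CPM. Nrp2 read 656, 647 and 650, then 402, 405 and 409, then 360, 368 and 370 CPM. In Nrp2 82.1% of the range lay in the lower step, and the upper step of -0.15 ± 0.03 (adjusted p = 0.00437) was below 1.2-fold. The quadratic term was called in both (adjusted p = 0.0203 for Cntn1 and 4.42e-06 for Nrp2).

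Pdcd4, an inhibitor of translation initiation, fell from 37.3, 43.5 and 36 to 27, 29.3 and 30.4 and then 21.8, 20.1 and 18.2 CPM. Steap2, a metalloreductase gene, fell from 63.6, 56.8 and 61.6 to 51.2, 45.8 and 45.5 and then 37.9, 39.8 and 38.5 CPM. The smaller falls of Crebrf, Soga1, Zfp60, Ralgapa2 and Tle1 had steps between -0.30 and -0.37. Cadm1, an adhesion molecule, had steps of -0.16 ± 0.05 and -0.18 ± 0.05, and Myof, a ferlin of membrane repair, -0.26 ± 0.06 and -0.23 ± 0.06.

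**Figure D4:**
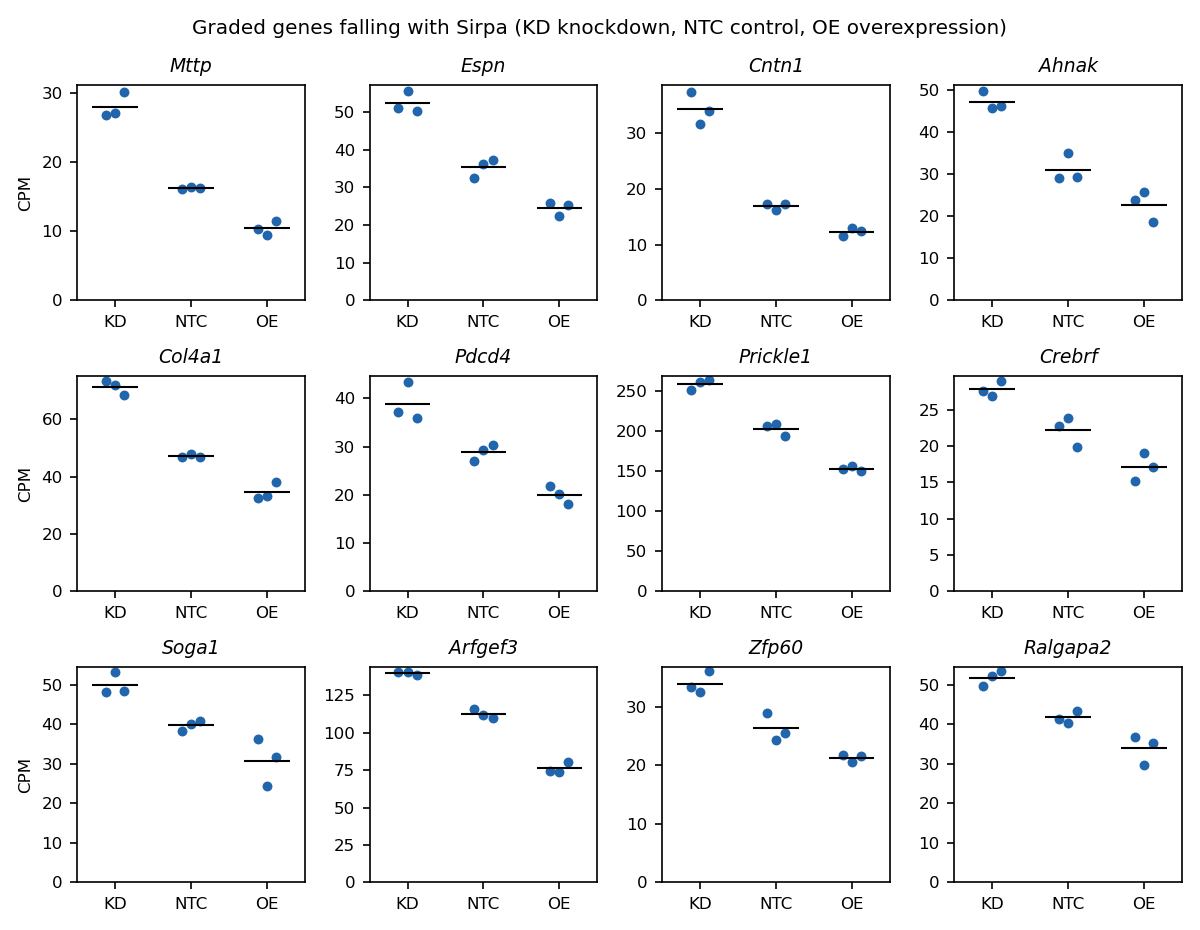
CPM (linear axis from 0) of 12 graded genes that fell with Sirpa, with a point for each library and a bar for the mean of the 3 libraries of a line. The 12 genes were chosen with no overlap between lines, so their 3 separate levels follow from that choice. Libraries of Prickle1 go from 252 to 264 CPM in knockdown to 150 to 157 in overexpression.

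The graded calls of 23 genes, 14 rising and 9 falling, held under all alternative settings that fit both steps and in all fits without 1 library. The setting with scores from measured Sirpa could not change these calls. Sirpa, Trpm1, Gjb2, Slc45a2, Gpr37, Fam84b, Stox2, Mest and Tinagl1 were among the rising ones, and Mttp, Espn, Ahnak, Pdcd4, Prickle1, Arfgef3 and Steap2 among the falling ones. A correction for transcript length in each library left 45 graded genes, 44 of them from the 119. It ended the call of Etv5, Kazn, Cntn1 and Col4a1 (highest adjusted p of a step 0.0836, 0.174, 0.0992 and 0.85), which held without any 1 library. It also ended those of Rarb, Cd38, Rab17, Cd276, Tpgs2, Col1a1, Itgav, Slc7a5, Lima1, Insig1, Crebrf, Soga1, Zfp60, Ralgapa2, Tle1, Cadm1 and Myof, for which leaving out 1 library could end the call too. Leaving out control replicate 1, 2 or 3 left 75, 76 and 76 graded genes. Each of these 3 fits ended the call of Rarb, Cd38, Rab17, Tpgs2, Lima1, Insig1, Crebrf and Soga1.

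The highest adjusted p of a step in any fit without 1 library was reached without control replicate 3 for Rarb (0.0794), Cd38 (0.156), Lima1 (0.122), Crebrf (0.106) and Tle1 (0.0653). It was reached without control replicate 1 for Insig1 (0.17), Zfp60 (0.119) and Myof (0.103), and without control replicate 2 for Itgav (0.143), Cd276 (0.0727) and Slc7a5 (0.067). Leaving out overexpression replicate 2 gave it for Tpgs2 (0.193), Col1a1 (0.105), Soga1 (0.0926) and Ralgapa2 (0.0819). For Rab17 it was reached without overexpression replicate 3 (0.135) and for Cadm1 without knockdown replicate 1 (0.0555).

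Counts for the other gene lists are read against the shares over all tested genes, which were 11% rising and 11.1% falling by the linear term, 16.9% positive and 16.1% negative by the quadratic term, and 0.911% graded. At that last share, a list of this size with no graded member is not a result about the list. Of 18 tested genes of MHC class I antigen presentation, none rose and 10 fell (11.1% of all genes), and 11 had a positive quadratic term (16.9% of all genes). The median linear term of the list was -0.11, against 0 over all genes. H2-K1, a class I heavy chain gene, read 35.8, 33.3 and 33.4, then 24.4, 23 and 24.6, then 21.8, 23.5 and 19 CPM, with control and overexpression overlapping (lower step -0.51 ± 0.09; upper -0.16 ± 0.09, adjusted p = 0.238). Tap2, a subunit of the peptide transporter, fell to the control and rose beyond it (-1.90 ± 0.28 and 1.12 ± 0.28). Among 36 interferon-stimulated genes 12 rose (11% of all genes) and 4 fell by the linear term, the latter near the share of all genes (11.1%). In this list 25 had a called rise in the upper step, against 13.1% of all genes, and 17 a called fall in the lower step, against 18%. Isg15, a ubiquitin-like modifier gene, read 4.69, 5.06 and 3.46, then 5.58, 5.7 and 4.63, then 10, 10.7 and 9.69 CPM, and only its upper step was called (0.93 ± 0.19, adjusted p = 0.00185).

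Of 31 adhesion molecules 15 fell by the linear term, against 11.1% of all genes, and 4 rose, near the share of all genes (11%). L1cam, a neural adhesion molecule, read 88.5, 94.9 and 95.7, then 32.5, 35.8 and 32.5, then 35.2, 23.8 and 29.4 CPM, with a call in the lower step (-1.47 ± 0.10; upper -0.18 ± 0.11, adjusted p = 0.247). Of 30 DNA replication genes 11 rose and none fell, against 11% and 11.1% of all genes. Those changes were small, such as 0.16 ± 0.02 for Mcm5, a subunit of the replicative helicase. Of 32 oxidative phosphorylation genes 13 rose and 2 fell, against the same shares. Ndufs1, a subunit of respiratory complex I, rose by a linear term of 0.20 ± 0.02. Of 26 unfolded protein and ATF4 response genes 11 rose (11% of all genes) and 2 fell (11.1% of all genes), with Slc7a5 the graded member and 16 positive quadratic terms (16.9% of all genes).

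Other lists held many called quadratic terms, in which the mean of the outer lines differs from the control. The cholesterol synthesis and uptake list had 22 of 25 positive quadratic terms, against 16.9% of all genes, and in 19 of the 25 both outer lines were called above the control, against 8.74%. By the linear term 5 of these rose and 3 fell, against 11% and 11.1%. The p53 target list had 18 of 24 positive quadratic terms, against 16.9% of all genes. Both outer lines were called above the control in 12 of the 24, against 8.74%. By the linear term 2 of the 24 rose and 7 fell, against 11% and 11.1%. Trp53inp1, a p53-induced stress gene, read 376, 337 and 360, then 141, 137 and 147, then 185, 188 and 189 CPM. Cytosolic ribosomal protein genes had 26 of 28 negative quadratic terms, against 16.1% of all genes, and both outer lines were called below the control in 21, against 6.66%. By the linear term 3 rose and 3 fell, shares near those of all genes (11% and 11.1%).

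**Figure D5:**
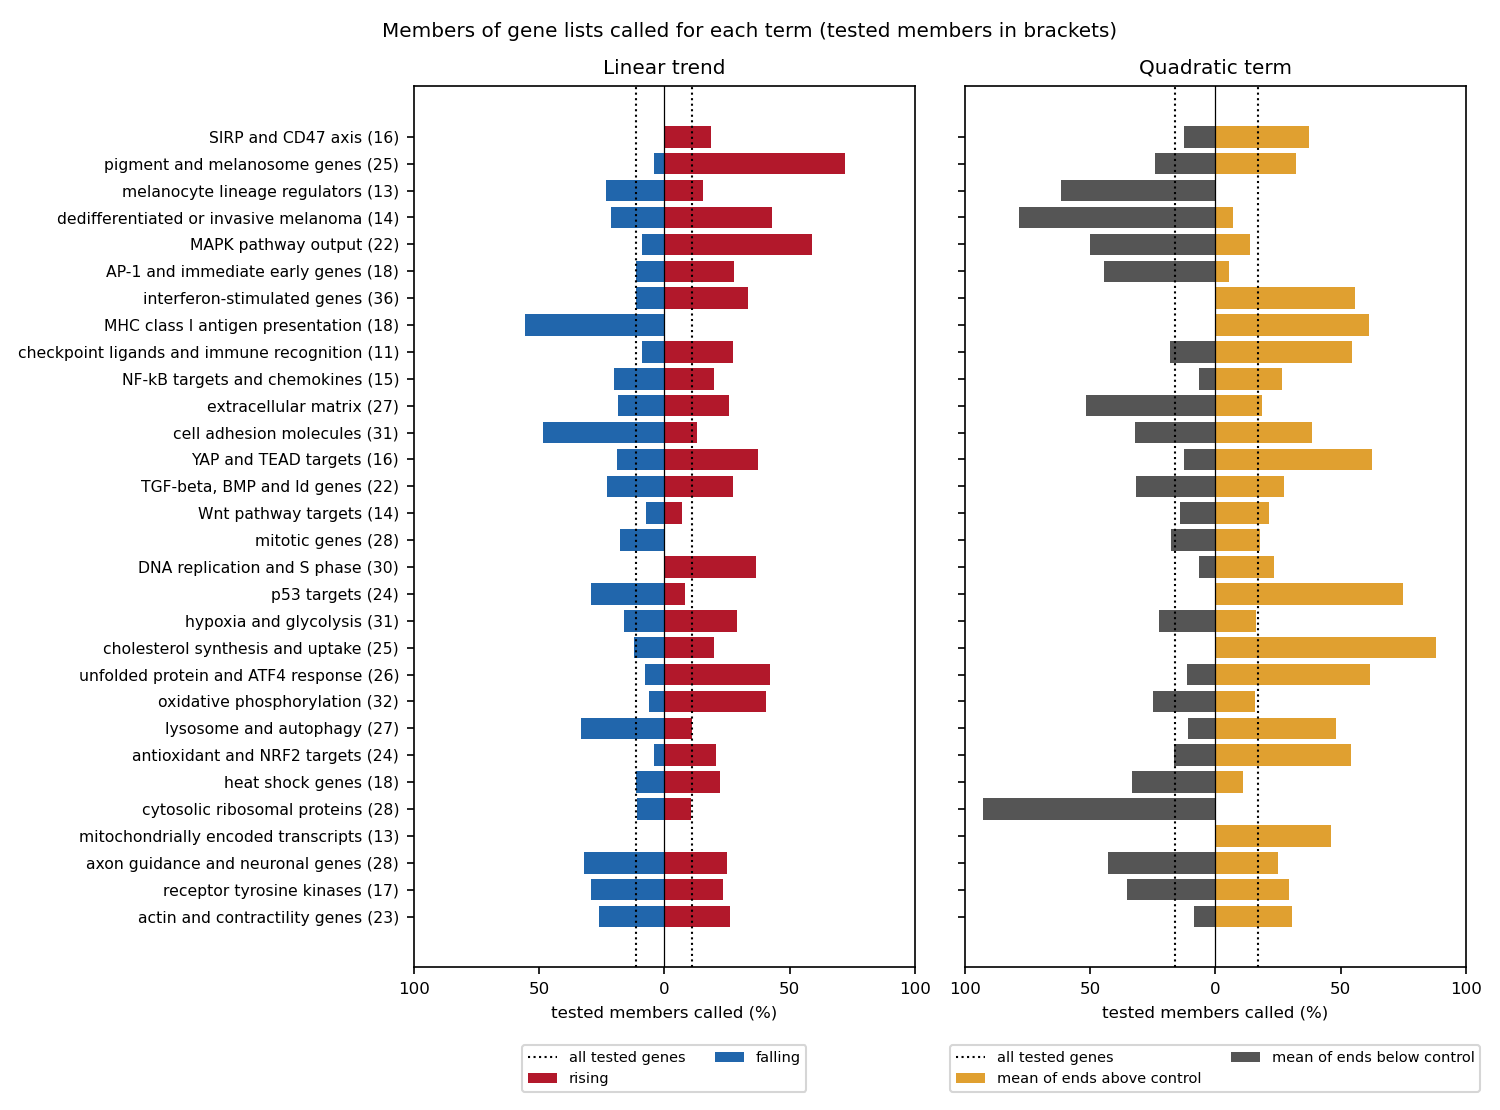
Share of the tested members of each gene list, cell type marker lists left out, called for the linear term (left panel) and for the quadratic term (right panel), with members rising or above the control to the right and falling or below it to the left, and dotted lines at the shares over all tested genes. Of the lists drawn, pigment genes reach furthest right in the left panel (18 of 25), and cholesterol genes and ribosomal protein genes furthest right and left in the right panel (22 of 25 and 26 of 28).

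Sirpa, the targeted gene, was the only graded gene of the 16 tested in the list of its ligand and partners. Over all tested genes 0.911% were graded, so this count is not a result about the partners. Thbs1, which encodes the CD47 ligand thrombospondin, had called steps in opposite directions, at 18.5, 16.3 and 16.5, then 12.3, 12.8 and 12.1, then 30.6, 36 and 33.2 CPM. Cd47 read 41.9, 35.4 and 38.7, then 37.1, 35.3 and 33.3, then 35.7, 35.4 and 37.2 CPM, all lines overlapping (linear -0.05, adjusted p = 0.418). Ptpn6 was lower in control (14.2, 12.7 and 12.4 CPM) than in knockdown (20.2, 22 and 18) or overexpression (22.1, 19.8 and 17.4), and Ptpn11 had neither step called.

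The widest departures from a graded order were genes high or low in the control alone. Rasgrp1, an activator of Ras, read 0.18, 0.0595 and 0 CPM in knockdown, 57.2, 61.7 and 62.6 in control, and 0.377, 0.118 and 0.459 in overexpression. Prkg2, a cGMP-dependent kinase gene, Ngfr, the low-affinity neurotrophin receptor gene, Cdh6, a cadherin gene, and H19, an imprinted noncoding RNA, likewise peaked in the control. H19 was the 1 of these with a called linear rise (2.39 ± 0.20). Sec16b, a gene of endoplasmic reticulum export sites, was lowest in the control, at 19.3, 15.8 and 20, then 2.08, 2.3 and 1.04, then 4.24, 6.18 and 5.85 CPM. Syn1, C1s1, Trim30a and Pagr1a were, with Sec16b, the 5 genes named for the highest quadratic terms; 93.2% of the words of Pagr1a and 47.6% of those of C1s1 are shared with other genes, so their values are uncertain.

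As a set, the graded genes had a median control level of 113 CPM, against 29.5 over all tested genes. Small steps are harder to call in genes of few counts, so this level is not separate from the calling rule. The quadratic term was not called in 93 of the 119, and in 20 of the other 26 the lower step was the larger. Both steps reached 1.2-fold in 45 genes (28 rising and 17 falling) and 1.5-fold in 6. In 116 genes the 9 libraries ran in line order without overlap, while in TPM, the deposited unit scaled by transcript length, 75 did. Of the 119 genes 117 were protein coding. The pseudogene Gm29216, which shares 97.2% of its words with mt-Co1, was graded at no more than 3.73 CPM in any library and at 0 in all knockdown libraries, and lies outside the rule for named genes.

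Graded genes were found on every autosome and on the X. Chromosome 15 had the highest share (1.97%, with 6 rising and 4 falling), against 0.911% of all tested genes. Chromosome 11 had 6 rising and none falling, a share of 0.581%. Chromosomes 13, 14 and 18 likewise held only rising graded genes (2, 2 and 1), and 12, 17 and X only falling ones (3, 3 and 2). Their shares were 0.302 to 0.626%, all under the 0.911% of all tested genes. Counts this small do not set a chromosome apart. Neighbouring tested genes were both graded in 1 case, Gpr137b-ps and Gpr137b on chromosome 13, which share sequence. At the edge of the call, Wasf1 (adjusted p = 0.0461 for the lower step), Fnip2 and Tpgs2 were just inside among rising genes, and Cox15 (0.0522), Pkdcc and Thsd7a just outside. Among falling genes Abi1, Mpp1 and Gnai2 (0.0447 for the upper step) were just inside, and Tulp4 (0.054), Uap1l1 and Herc1 just outside.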

How the data were processed

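Messenger RNA of 9 B16F10 libraries, 3 per line, was sequenced as non-directional read pairs of 150 bases, per the labels' protocols. Per the submitters' processing notes the authors used Salmon 1.4.0, MultiQC 1.11, DESeq2 1.34.0 and build mm39. Each deposited table holds, per transcript, an estimated count, a TPM value and an effective length in bases, per the file headers. Which index and annotation release were used is not stated there. Estimated counts were summed per gene through GENCODE M21 transcript IDs and rounded: 137161 of 140789 transcripts (97.42%) matched, and the rest held 0.554 to 0.654% of counts per library. M21 follows GRCm38, so no coordinate was taken from the deposited tables.

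Genes were filtered with filterByExpr, scaled by TMM and tested with edgeR 4.0.16 (R 4.3.3) in 1 quasi-likelihood fit of the 3 lines over all 9 libraries, without covariates; the common coefficient of variation was 0.0966. Adjusted p-values are Benjamini-Hochberg over the 13064 genes. The method was tested on simulated data. Alternatives used DESeq2 1.42.0, limma-voom (limma 3.58.1), upper-quartile scaling, other filters, a length offset, a replicate block, scores from measured Sirpa, a linear term alone, stricter thresholds and each library left out. No libraries were duplicates (chi-square per degree of freedom 4.77 to 10.98). Depth of 16400000 to 22380000 counts limits precision for genes of few CPM.

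Named were Sirpa, the 14 rising and 14 falling graded genes with the largest smaller step (all 9 libraries in order, at least 5 CPM in 1 line), up to 3 graded and 2 linear members of each of 36 lists, 6 of them markers, and the 5 most extreme genes high or low in control; predicted genes and pseudogenes were left out. Others named were chosen after their values were seen. Members and lists were chosen with earlier results of these data known. Motifs were searched in the 250 bases before RefSeq starts. Shared sequence is the share of 31-base words of a gene's transcripts found in other genes.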

Additional observations from a re-analysis of the deposited data

How the results depend on the processing

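With the transcript length offset the linear trend rose in 754 genes and fell in 669, the quadratic term called 1239 above and 1165 below the control, the lower step called 2794 and the upper step 1575, opposed genes were 982, and graded genes were 28 rising and 17 falling. Under it the upper steps of Crebrf (0.05, adjusted p = 0.953) and Ralgapa2 (0.03, adjusted p = 0.975) and the lower step of Cadm1 (0, adjusted p = 0.988) no longer had their direction; the cause was not tested. A linear term with no quadratic term called 392 rising and 381 falling genes. An adjusted p under 0.01 gave 860 rising and 875 falling, 1299 below the control by the quadratic term, 1883 by the upper step, 1203 opposed, and 33 rising and 21 falling graded genes. Requiring 1.2-fold in both steps left 28 and 17. Leaving out 1 library gave 44 to 71 rising and 30 to 50 falling graded genes, 1081 to 1457 rising and 1160 to 1410 falling linear trends, 1734 to 2245 genes above and 1520 to 2122 below by the quadratic term, 3885 to 4555 by the lower step, 2440 to 3297 by the upper step and 1564 to 1971 opposed. DESeq2 shared 117 and limma-voom 115 of the 119 graded genes. No gene graded in both fits changed direction under any setting. That comparison takes only genes with both steps called in each fit, so it leaves out Crebrf, Ralgapa2 and Cadm1 under the length offset. Scores from the measured Sirpa level left the same 119. Replicate numbers did not pair the samples (same-number correlations -0.093 to 0.123, 1 of 9 above 0.1); the replicate block gave 64 rising and 46 falling graded genes. Having 3 libraries per line limits the precision of small steps.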
